A study of Bos taurus with 6 samples.

Results

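Aldolase A (ALDOA) and glyceraldehyde-3-phosphate dehydrogenase (GAPDH) are a pair of glycolytic enzymes, and their transcripts were examined in longissimus dorsi, a back muscle, of Hanwoo (Korean cattle). The genes were taken by Ensembl ID, ENSBTAG00000012927 for ALDOA and ENSBTAG00000014731 for GAPDH, and both IDs were found among the 24616 gene rows of every library. Both also passed the filter on low counts that left 12769 genes for testing. The gene names come with these IDs and were not checked against a table, since the reference at hand pairs no Ensembl ID with a name and describes another assembly than the UMD3.1 build of the counts. For the same reason no genome position is given, and no marker gene of muscle or of another cell type and no other enzyme of the pathway was analysed here.

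The series holds 1 poly(A) RNA library from each of 6 males. Bulls (intact males) 20, 22 and 23 were sampled at 746 days of age. Steers (castrated males) were sampled at 996 days (Steer 439), 950 days (Steer 456) and 930 days (Steer 458). All 6 animals share breed, muscle and library protocol, and no treatment is named besides the sex type. As all steers were older than all bulls, effects of age and of castration cannot be told apart. Each title carries a different animal number, and each animal was counted as 1 replicate.

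Glycolysis breaks glucose down to pyruvate in the cytosol, and fast-twitch muscle fibres rely on it for rapid ATP supply. Aldolase splits fructose-1,6-bisphosphate into a pair of triose phosphates, and aldolase A is the isoform of muscle. GAPDH acts further along, where it oxidises glyceraldehyde-3-phosphate and passes the electrons to NAD+. GAPDH is also in wide use as a reference gene, to which the amounts of other transcripts are scaled, so its spread between animals is of practical interest.

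Gene counts summed to between 17027226 (Steer 456) and 27490776 (Steer 458) per library, which leaves almost no counting error for genes of this abundance. Steer 456 was most often the lowest library. After scaling with TMM (trimmed mean of M-values, which corrects library sizes for composition), it was the lowest of the 6 libraries in 52 of the 100 most abundant tested genes, ALDOA and GAPDH among them, and in 30.1% of all 12769. It was also the highest library in 28.1% of all tested genes, so over the whole table it was extreme in both directions. Steer 458 came next, as the lowest library in 19.7% and the highest in 19% of all tested genes. It was the highest in 34 of the 100 most abundant. The main results are given below with and without Steer 456.

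ALDOA was the second most abundant tested gene of this muscle by mean scaled reads, and its levels in bulls and steers overlapped. It took 1.93% of all gene counts in Bull 20 (419876 reads), 2.65% in Bull 22 (508902 reads) and 2.12% in Bull 23 (412782 reads). In Steers 439, 456 and 458 it took 2.41%, 1.69% and 2.60%, from 597320, 287801 and 715821 reads. Bull 22 and Steers 439 and 458 were thus high, Bulls 20 and 23 intermediate and Steer 456 low, with the groups overlapping throughout. The group means were 2.23% ± 0.371 in bulls and 2.23% ± 0.480 in steers (SD, n = 3 each), a difference of -0.000453 percentage points (exact 2-sided permutation p = 1). The 95% Wilson interval of a share was at most ± 0.0072 percentage points, so the spread between animals far exceeded the counting error. Such intervals cover counting error only, since no molecular identifiers are described.

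GAPDH was also among the most abundant genes, ranked 12 by mean scaled reads, and did not separate the groups either. Its share of gene counts was 1.13% in Bull 20 (245634 reads), 1.41% in Bull 22 (270225 reads) and 1.09% in Bull 23 (211797 reads). In Steer 439 it was 1.24% (307096 reads), in Steer 456 it was 0.782% (133137 reads), and in Steer 458 it was 1.36% (372683 reads). Steer 456 was the low one again, at 0.72 times the next lowest library, while the other 2 steers lay within the range of the bulls. The means were 1.21% ± 0.173 in bulls and 1.13% ± 0.303 in steers (SD, n = 3 each), a difference of 0.083 percentage points (exact 2-sided permutation p = 0.8). Summed over both enzymes, the share was 3.44% ± 0.536 in bulls and 3.36% ± 0.783 in steers (SD, n = 3 each; exact 2-sided permutation p = 0.9). With 3 animals against 3 this test cannot give a p below 0.1, and adjusted over the 3 shares and the read ratio given further on, each p was 1.

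**Figure D1:**
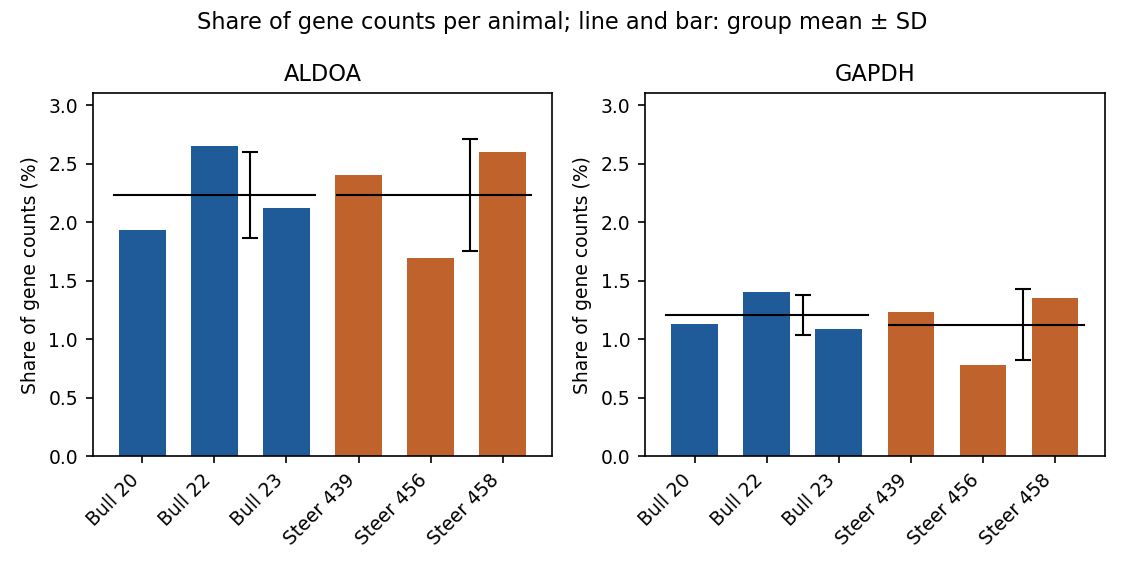
Share of gene counts (%, vertical axis) of ALDOA and GAPDH in each of the 6 animals; horizontal lines are group means and error bars SD (n = 3 each). Steer 456 is lowest in both panels, at 1.69% and 0.782%, and the bars of bulls and steers overlap in height.

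Both genes stood near the top of every library. ALDOA ranked 5, 3 and 6 by reads in Bulls 20, 22 and 23, and 2, 5 and 2 in Steers 439, 456 and 458. GAPDH ranked 11, 9 and 11 in the bulls and 11, 20 and 10 in the steers. Together the enzymes made up as much of the counts as between 12.9% (Steer 456) and 19.6% (Steer 458) of the summed share of the 10 most abundant genes. These ranks and shares are of reads, not of reads per transcript length, so they do not order the amounts of the transcripts.

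**Figure D2:**
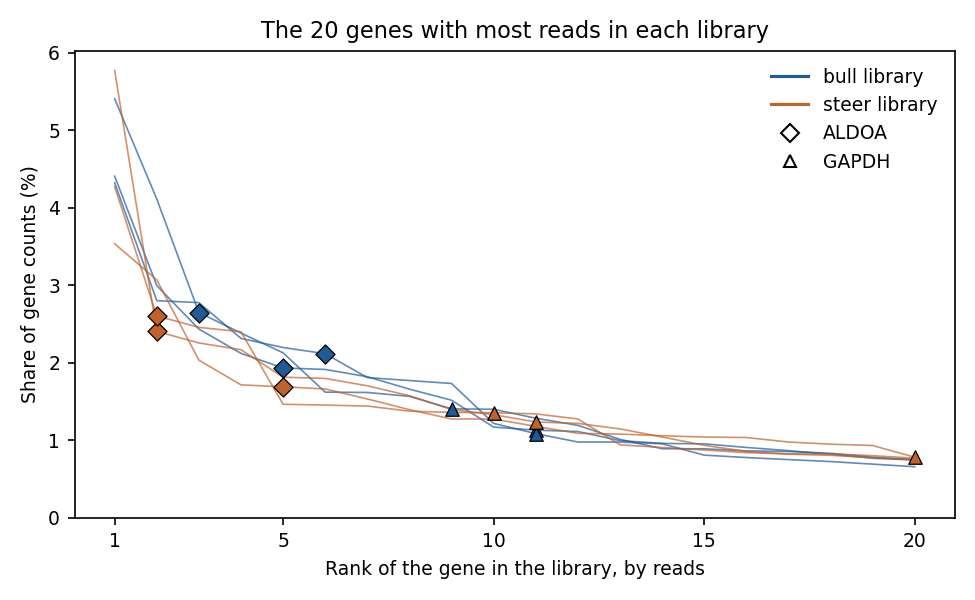
Share of gene counts (%) of the 20 genes with most reads in each library against their rank, with bulls in blue and steers in orange. ALDOA (diamonds) sits at ranks 2 to 6 and GAPDH (triangles) at ranks 9 to 11, apart from rank 20 in Steer 456.

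Neither enzyme passed the test between bulls and steers. In edgeR's quasi-likelihood test over all genes, ALDOA had a log2 fold change (bulls minus steers) of -0.10 ± 0.352 (SE), with an adjusted p of 0.89. GAPDH had a log2 fold change of -0.0023 ± 0.355 (SE), with an edgeR adjusted p of 0.998. In the same fit 524 of 12769 genes were called at an adjusted p under 0.05 (4.1%), and 0 of the 2 enzymes. That background count was unstable, with 1507 genes by DESeq2 and 10, 7, 7, 995, 1019 and 77 by edgeR without Bull 20, Bull 22, Bull 23, Steer 439, Steer 456 and Steer 458. Before adjustment 2866 genes (22.4%) had an edgeR p under 0.05. Neither enzyme was among them, with edgeR p of 0.775 and 0.995 over the whole table. By DESeq2 neither was called, with adjusted p of 0.85 and 0.98.

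The size of the fitted change was small beside that of other genes, but its interval was wide. Of all tested genes, 83.2% had a larger absolute log2 fold change than ALDOA and 99.6% a larger one than GAPDH, where the median absolute value was 0.336. Among the 100 most abundant genes the 2 enzymes ranked 71 and 100 by absolute change, and 8 of those 100 were called, all lower in bulls. The 95% interval of the fold, bulls over steers, ran from 0.532 to 1.63 for ALDOA and from 0.568 to 1.75 for GAPDH. The missed threshold therefore does not show that the levels were equal.

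On the scale used for that test, the animals lay in nearly the same order for both genes. TMM-scaled CPM (counts per 1e6 gene counts) of ALDOA was 19428 in Bull 20, 25966 in Bull 22 and 19682 in Bull 23. Among steers, ALDOA reached 24379 CPM in Steer 439, only 16240 in Steer 456 and 29316 in Steer 458. GAPDH stood at 11365, 13788 and 10099 CPM in Bulls 20, 22 and 23, and at 12534, 7513 and 15263 CPM in Steers 439, 456 and 458. Both genes were thus lowest in Steer 456 and highest in Steer 458, so the steers held both ends of the range. Of the 9 pairings of a bull with a steer, the bull was higher in 4 for ALDOA and in 4 for GAPDH. In both genes the groups overlapped, while 29.6% of all tested genes had no overlap between bulls and steers. By share of counts, without TMM scaling, Bull 22 and not Steer 458 was the highest library for both.

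Both estimates moved with the animals included. In Steer 456 TMM-scaled ALDOA was 0.605 times, and GAPDH 0.541 times, the mean of the other 2 steers. Without it, the log2 fold change of ALDOA was -0.31 (95% interval -0.968 to 0.355, edgeR adjusted p = 0.528) and that of GAPDH -0.24 (-0.857 to 0.375, edgeR adjusted p = 0.598). Without Steer 458 they were 0.077 and 0.21, with edgeR adjusted p of 0.927 and 0.782. Without Bull 22 they were -0.26 and -0.14, and without Steer 439 they were -0.085 and 0.032. Without Bull 20 or Bull 23 ALDOA stood at -0.034 and -0.049, and GAPDH at 0.019 and 0.087. The sign of either estimate thus differed between these fits, and none of the 6 fits that left out 1 animal called either gene. In bulk tissue, fewer muscle cells in a sample and less transcript per cell cannot be told apart.

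**Figure D3:**
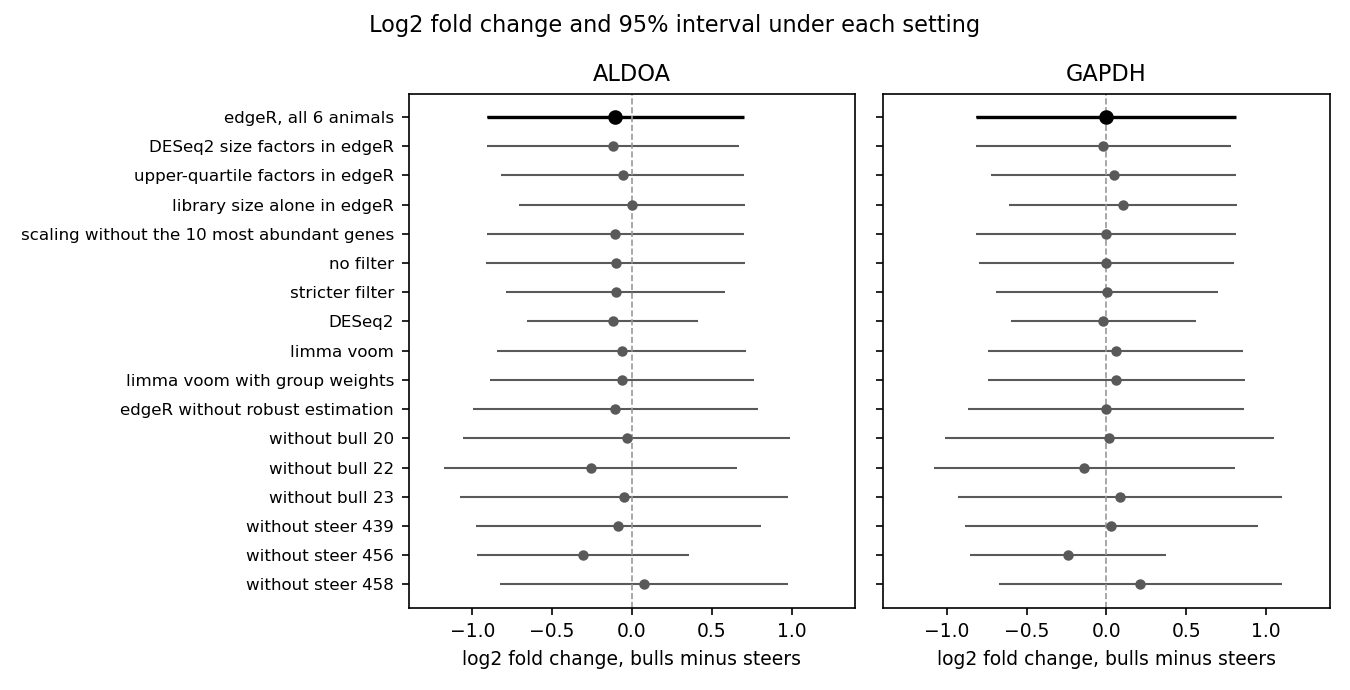
Log2 fold change (bulls minus steers, horizontal axis) with its 95% interval for ALDOA and GAPDH, in the edgeR fit of all 6 animals (black) and under each other setting (grey). Every interval includes 0, and the estimates range from -0.31 to 0.077 for ALDOA and from -0.24 to 0.21 for GAPDH.

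The enzymes varied together from animal to animal. Across the 6 libraries, log2 CPM of ALDOA and GAPDH correlated with Pearson's r = 0.959 (exact permutation p = 0.00278) and Spearman's rho = 0.943 (exact permutation p = 0.0167), the only relation tested. Without Steers 456 and 458, the libraries farthest from the median of GAPDH, r was 0.910 over 4 animals (exact permutation p = 0.167). Without Steer 456 alone it was 0.954 (exact permutation p = 0.0333). Both genes are read from the same library and scaled by the same factor, and with library size alone r was 0.940 (exact permutation p = 0.00417). The 3 animals of a group are too few for a correlation of their own.

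The link was close also beside that of other well-counted genes, although many genes shared the pattern. Of 1110 genes with a mean of at least 100 CPM, GAPDH ranked 13 by its correlation with ALDOA, and ALDOA ranked 16 by its correlation with GAPDH. A correlation above 0.9 with ALDOA was found for 47 of the 1110 genes (4.23%), and with GAPDH for 64 (5.77%). The median correlation was 0.417 with ALDOA and 0.51 with GAPDH, and all of these rest on the same 6 libraries. Without Steer 456 the ranks were 14 and 19 among 1099 genes.

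The number of ALDOA reads per GAPDH read had a smaller coefficient of variation (SD over mean) than either gene. A small spread of this ratio follows from the correlation of the genes over these same libraries and is no separate evidence. The ratio was 1.71, 1.88 and 1.95 in Bulls 20, 22 and 23, and 1.95, 2.16 and 1.92 in Steers 439, 456 and 458. Bull 20 had the lowest ratio and Steer 456 the highest, and the other 4 animals lay between 1.88 and 1.95. The mean was 1.85 ± 0.124 in bulls and 2.01 ± 0.133 in steers (SD, n = 3 each), and the coefficients of variation were 6.7% and 6.6%. For the shares of gene counts these were 16.6% and 21.5% for ALDOA, and 14.3% and 26.9% for GAPDH. The difference in the log2 ratio, bulls minus steers, was -0.12 (exact 2-sided permutation p = 0.3) and the groups overlapped, since Bull 23 lay above Steers 439 and 458. Gene length cancels in this comparison between animals but not in the ratio itself, which is therefore no ratio of transcript amounts.

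Over the 6 libraries the log2 ratio of the enzymes had an SD of 0.109. Among the 1110 well-counted genes, GAPDH ranked 9 from the smallest SD of the ratio to ALDOA, where the median SD was 0.375. Without Steer 456 the SD of the ratio was 0.0789, against a median of 0.315, and GAPDH ranked 5 among 1099 genes. Taken by the ratio to GAPDH, ALDOA ranked 9 with all 6 libraries and 11 without Steer 456. Among steers the ratio was highest in Steer 456, the animal with the lowest level of both genes, at 1.13 times that of Steer 458, the animal with the highest scaled level of both.

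**Figure D4:**
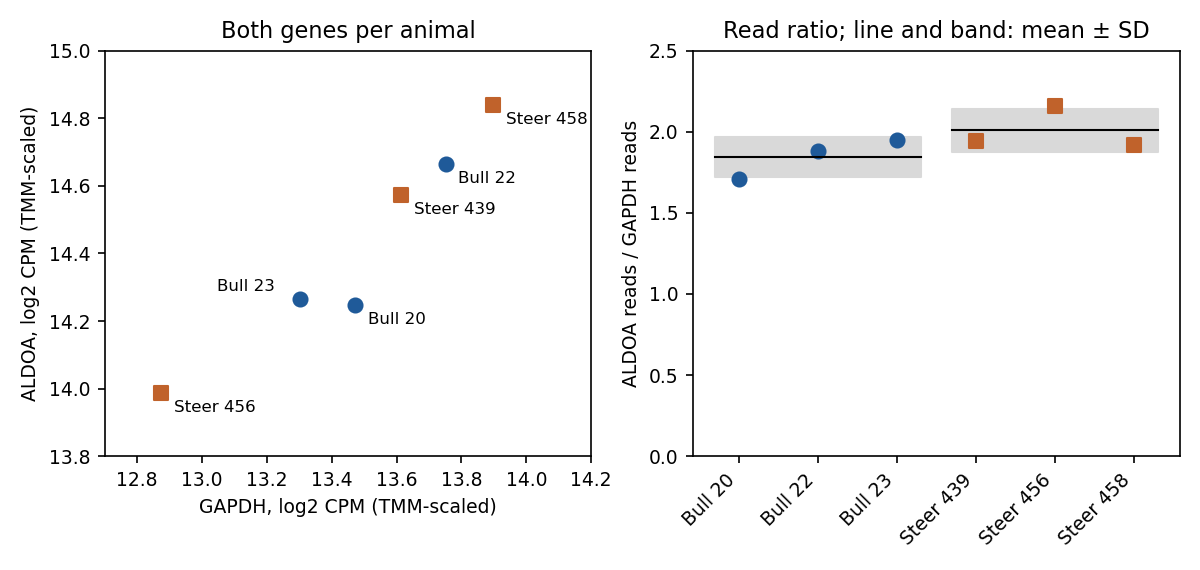
Left, log2 CPM (TMM-scaled) of ALDOA against GAPDH in each animal, with axes that do not start at 0; right, ALDOA reads per GAPDH read, with group means (lines) and SD (bands, n = 3 each). The animals lie along a rising line on the left, and on the right all ratios lie between 1.71 and 2.16.

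GAPDH was not among the least variable genes of this muscle. Its SD of log2 CPM over the 6 libraries was 0.364, and 54.5% of all tested genes varied more. For ALDOA the SD was 0.316, and 63.6% varied more. Among the 100 most abundant genes, GAPDH ranked 33 and ALDOA 19 from the least variable. Within bulls the SD was 0.227 for GAPDH and 0.236 for ALDOA. This was above the median of 0.179 over all genes but below that of 0.251 over the 100 most abundant. Within steers the SD was 0.528 for GAPDH and 0.436 for ALDOA, against a median of 0.391 over all genes and 0.502 over the 100 most abundant. The steer values rested on Steer 456, since between the other 2 steers the SD was 0.201 for GAPDH and 0.188 for ALDOA, below the median of 0.238. Over the 5 libraries without that animal, GAPDH had an SD of 0.233, with 66.9% of genes varying more, and ALDOA one of 0.258, with 61.2% varying more. From the lowest to the highest bull GAPDH differed by 1.37-fold in scaled CPM, and from the lowest to the highest steer by 2.03-fold.

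**Figure D5:**
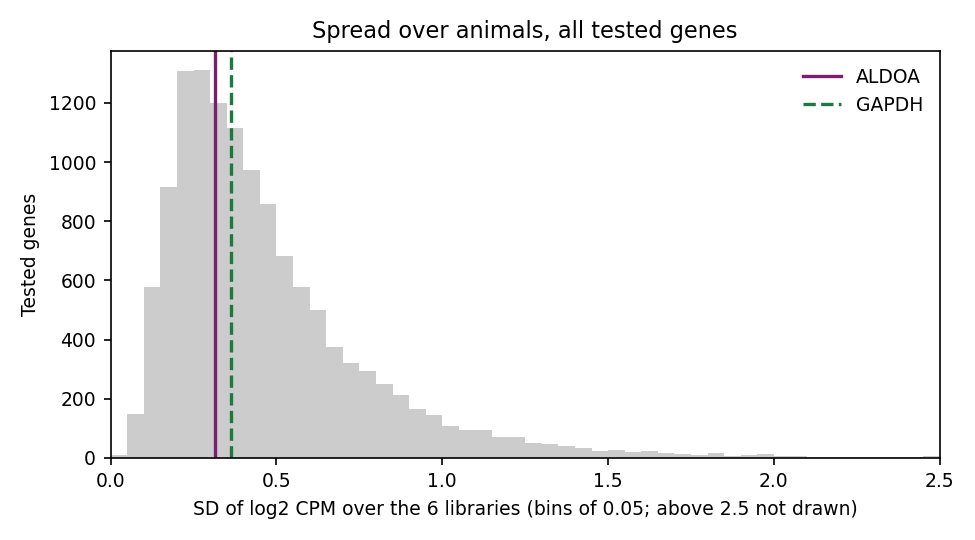
Number of tested genes by the SD of their log2 CPM over the 6 libraries (horizontal axis, bins of 0.05), with vertical lines at ALDOA (0.316) and GAPDH (0.364). Both lines stand in the body of the distribution, whose median is 0.391.

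As the only scaling gene, either enzyme gave fewer calls than TMM with all 6 animals, and more without Steer 456. When libraries were scaled by their GAPDH reads, edgeR called 31 genes (17 higher and 14 lower in bulls), all of them also among the 524 called with TMM. Scaled by ALDOA reads it called 60 genes (33 higher and 27 lower), again all among the 524. Without Steer 456, edgeR called 1129 genes with GAPDH and 1913 with ALDOA as the scale, against 1019 with TMM. Without Steer 439 the calls were 255 and 188 against 995, and without Steer 458 they were 74 and 82 against 77. The shortfall against TMM thus depended on which animal was left out, and its cause was not tested. Without a bull they were at most 4 with either enzyme and between 7 and 10 with TMM. Before adjustment, 1409 genes with GAPDH and 1652 with ALDOA as the scale had an edgeR p under 0.05, against 2866 with TMM. GAPDH per gene count varied by 1.80-fold from the lowest to the highest library and ALDOA by 1.57-fold, where TMM factors varied by 1.21-fold. Steer 456 was the lowest library for both genes. Over the bulls, whose range held the other steers, GAPDH varied by 1.29-fold and ALDOA by 1.37-fold. GAPDH scaling raised the median SD of log2(CPM + 1) over genes from 0.153 to 0.233 in bulls and from 0.326 to 0.496 in steers. With ALDOA as the scale these medians were 0.242 and 0.432. TMM factors are computed from many genes of these same libraries, so a higher median SD with a single gene is no separate evidence about that gene. With GAPDH scaling the median log2 fold change over the table moved by -0.085. With GAPDH as the scale, the log2 fold change of ALDOA came to -0.12 ± 0.271 (SE) and did not pass (edgeR adjusted p = 0.922).

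The genes most like each enzyme were taken by Pearson correlation of log2 CPM over the 6 libraries, among genes with at least 100 CPM on average. Nearest to ALDOA was ENSBTAG00000019782 (r = 0.988), with 1490, 2010 and 1470 CPM in Bulls 20, 22 and 23 and 1820, 1120 and 2150 CPM in Steers 439, 456 and 458. Nearest to GAPDH was ENSBTAG00000033008 (r = 0.993), with 3950, 4970 and 3750 CPM in the bulls and 4320, 2750 and 5190 CPM in the steers, in the same order. Both repeat the low value in Steer 456 and the high one in Steer 458, and neither was called between the groups (edgeR adjusted p = 0.964 and 0.944). Without Steer 456 their correlations with ALDOA and GAPDH were 0.992 and 0.980. Both genes were picked over these same libraries, so their pattern over the animals follows from that choice and is no separate evidence.

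The gene that ran most against each enzyme was picked over the same libraries. These genes were less abundant than the enzymes, ranked 713 (for GAPDH) and 757 (for ALDOA) by mean scaled CPM. ENSBTAG00000017753 ran most against GAPDH (r = -0.984), with 139, 111 and 167 CPM in Bulls 20, 22 and 23, and 145, 263 and 99.4 CPM in Steers 439, 456 and 458. It was highest in Steer 456 and lowest in Steer 458. ENSBTAG00000009887 ran most against ALDOA (r = -0.948) but varied little, from 138 to 161 CPM. Without Steer 456, r was -0.950 for the former with GAPDH and -0.918 for the latter with ALDOA. Their edgeR adjusted p between the groups were 0.687 and 0.979. No table used here gives names for these 4 IDs.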

How the data were processed

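Per the labels' protocols, Trizol and RNeasy RNA was selected with oligo-dT beads and made into TruSeq libraries for Illumina sequencing. The files deposited by the authors hold raw counts of reads for each gene. Reads were processed with FastQC, TopHat2 (2.0.2) and HTSeq (0.5.3p3) on build UMD3.1, per the submitters' processing notes. The sources used here do not give the annotation release, strand setting or overlap mode. Reads aligned to more than one place were not counted for any gene, which can lower genes with near-identical copies. GAPDH is known for many processed pseudogenes, so its counts are uncertain in this respect. The 5 HTSeq summary rows (29.3% to 39.9% of the summed counts of a library's file) entered neither library sizes nor tests.

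Bulls and steers were compared with edgeR 4.0.16 in R 4.3.3 (quasi-likelihood test, TMM, filterByExpr, robust dispersions, Benjamini-Hochberg over all 12769 tested genes, threshold 0.05). The SE is |log2 fold change| over the root of the F statistic, and 95% intervals use the degrees of freedom of the fit. Log2 CPM was computed with 2 as the prior count. Shares and ratios had exact permutation tests. DESeq2 1.42.0 and limma 3.58.1 were alternatives, with other scalings, filters and denominators and each animal left out. Genes named by ID are, for each enzyme, the 1 gene with the highest and the 1 with the lowest correlation. The genes and lists were chosen with earlier results of these data known. The lists of other glycolytic genes and cell type markers, set by symbol, were not tested, since 0 of 37063 reference entries carry an Ensembl ID. Each p-value sets a difference or a correlation against the spread between these animals.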

Additional observations from a re-analysis of the deposited data

Results flagged for a closer look

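Reads that no comparison uses were present in every library. A median of 26.8% of the summed counts of a file were alignments to more than one place, between 16.9% in Steer 439 and 28.2% in Bull 22. With no control sample, any share above a count of 0 is listed here, which says nothing about whether this one is unusual. Reads of GAPDH and ALDOA that match near-identical copies would be among them, and their number was not tested. With 3 animals a group, outlying animals were not tested for.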

How the results depend on the processing

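No setting brought ALDOA or GAPDH past the threshold, but small estimates changed sign. The log2 fold change of ALDOA (-0.10) was 3.39e-05 with library size alone, and -0.31 to 0.077 with each animal left out. That of GAPDH (-0.0023) was 0.046 with upper-quartile factors, 0.10 with library size alone, 0.0023 with a stricter filter (10 CPM in 3 libraries), 0.059 with limma voom, 0.061 with voom and group weights, and -0.24 to 0.21 with each animal left out. Scaled by ALDOA reads, an alternative chosen after seeing the data, as were scaling by GAPDH reads and the values without Steer 456 for spread, likeness and these scalings, it was 0.12. The difference in ALDOA share (-0.000453 percentage points) was 0.11 with the 10 most abundant genes out of the denominator, and -0.27 to 0.19 with each animal left out. For the GAPDH share (0.083) it was -0.0019 on TMM effective library sizes and -0.088 to 0.20 over the animals. For the summed share (0.083) it was -0.042 over all lines of the file, -0.16 on TMM effective sizes and -0.36 to 0.38 over the animals. The log2 read ratio (-0.12) kept its sign throughout, from -0.16 to -0.067. The 524 genes called became 1507 with DESeq2, 60 and 31 when scaled by ALDOA and GAPDH reads, and 7 to 1019 with each animal left out (7 without Bull 22 or Bull 23, 10 without Bull 20, 77 without Steer 458, 995 and 1019 without Steers 439 and 456). The cause was not tested. No paired analysis was possible because bulls and steers share no animal number. Counting error of a share was at most ± 0.0072 percentage points, which covers the sampling of reads only. Steer 456 had the fewest gene counts (17027226) and Steer 458 the most (27490776). Whether depth bears on the spread between animals in any other way was not tested.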
